A study of Homo sapiens with 4 samples.

Results

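The 10 genes described here encode the matrix metalloproteases MMP2, MMP8, MMP9, MMP14, MMP19 and MMP25, the related membrane protease ADAM8, and the protease inhibitors TIMP1, TIMP2 and TIMP3. They were chosen by gene symbol, with earlier results of these data known. An array feature annotated with exactly 1 gene was found for 9 of them, out of 17687 genes tested. TIMP2 was not analysed here, and none of the 9 had over 1 feature. RNA came from NB4-R4, an established acute promyelocytic leukaemia line resistant to ATRA (all-trans retinoic acid), which makes promyelocytic leukaemia cells differentiate. Cells were given MK-8776, an inhibitor of the checkpoint kinase CHK1, at 4 µM for 96 h, or the vehicle DMSO for the same time, and total RNA of each culture was hybridised to an Affymetrix expression array. There were 2 arrays per group, named biological replicates by the submitters. The labels do not describe how the replicates were kept apart, and p-values therefore cover only the spread among these arrays. All arrays come from 1 resistant subclone, and the comparison asks which transcripts differ after CHK1 inhibition in it.

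Matrix metalloproteases are zinc-dependent enzymes that cut collagens, gelatin and other proteins outside the cell. They are made as inactive proenzymes whose propeptide must be removed, some are secreted and some are held at the cell surface, and the TIMP proteins block their active site. Maturing neutrophils store MMP9 in gelatinase granules and MMP8 in specific granules, while monocytes and macrophages make MMP9, MMP14, MMP19 and TIMP1.

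Values are expression on the log2 scale from RMA, the authors' normalization, so that 1 unit is a 2-fold difference. Changes are MK-8776 minus DMSO, with the standard error (SE), 95% interval and Benjamini-Hochberg adjusted p of a limma fit over all 17687 genes, and a gene is said to have risen or fallen only at an adjusted p under 0.05. Levels of different genes are not compared, since each feature has its own probes. In bulk RNA of this kind, a change in the share of cells that express a gene and a change in the RNA per cell cannot be told apart.

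After MK-8776, 5 of the 9 measured genes rose and 0 fell, while 1.66% of all genes rose and 2.02% fell (3.69% in either direction). The 5 were the gelatinase gene MMP9, the membrane protease genes MMP25 and MMP14, the secreted protease gene MMP19 and the inhibitor gene TIMP1. MMP9 had the largest change of the 9, 2.83, or 7.11-fold, and the other 4 rose by 1.245 to 1.57. MMP2, MMP8, ADAM8 and TIMP3 did not pass. The members' median change was 1.245, against 0.005 for all genes. Both MK-8776 arrays lay above both DMSO arrays in 8 of the 9, the 5 that rose included, against 24.0% of all genes. They lay below in 0 of the 9, against 24.2% of all genes. Since the genes were chosen with earlier results of these data known, these counts describe the set and do not test it.

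**Figure D1:**
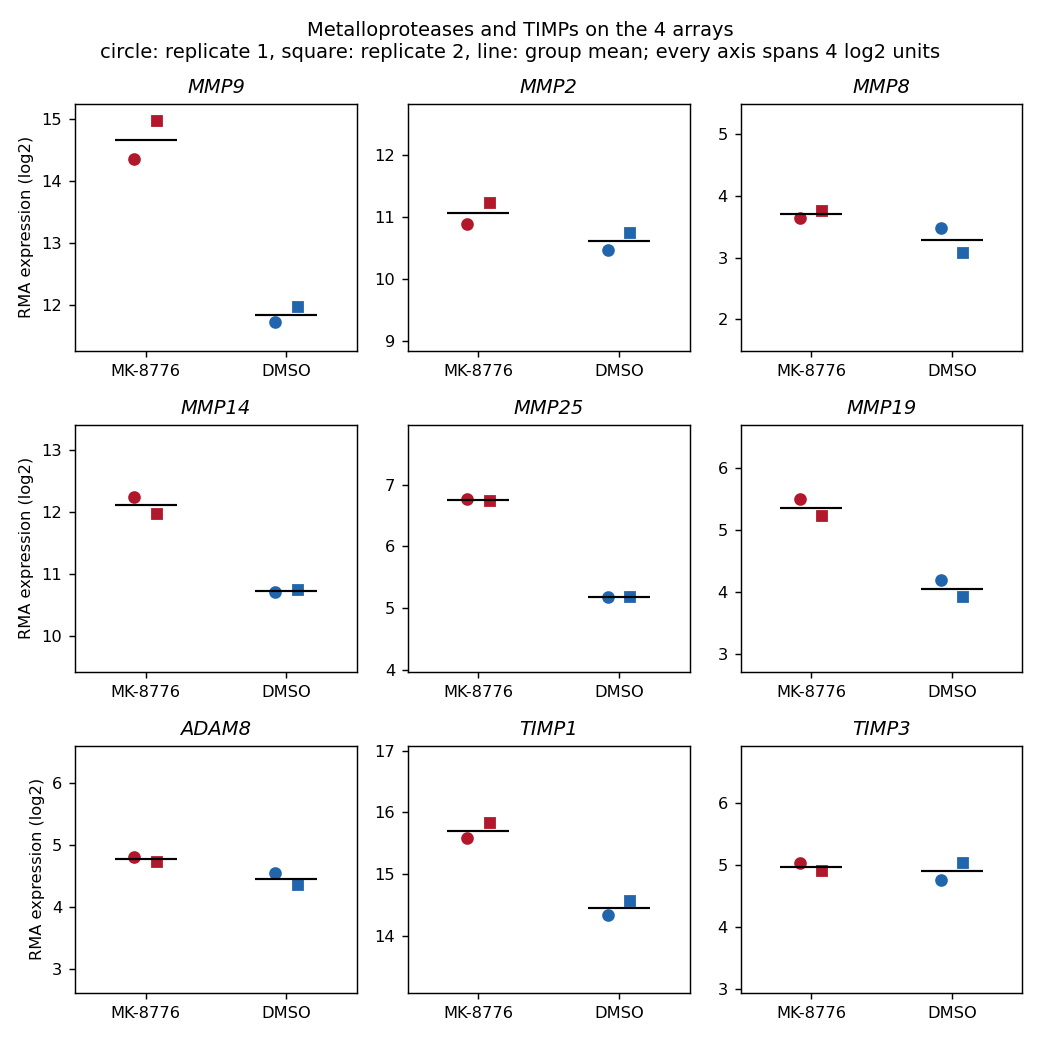
RMA expression (log2) of the 9 measured genes on each array, with MK-8776 left of DMSO in every panel; circles are replicate 1, squares replicate 2 and lines the group means, and every vertical axis spans 4 log2 units. The groups are far apart for MMP9, clearly apart for MMP14, MMP25, MMP19 and TIMP1, and overlap for TIMP3.

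Of the gelatinase genes, MMP9 rose and MMP2 did not pass. MMP9 encodes gelatinase B, which cuts denatured collagen and the type IV collagen of basement membranes (chromosome 20, 46008908 to 46016561, GRCh38). Its values were 14.36 and 14.98 on the MK-8776 arrays, against 11.72 and 11.96 on the DMSO arrays. Both treated arrays lay more than 2 units above either control array, and the MK-8776 arrays differed from each other by more than the DMSO arrays did. The group means were 14.67 ± 0.44 in MK-8776 and 11.84 ± 0.17 in DMSO (SD, n = 2 each). The change of 2.83 had an SE of 0.26 and a 95% interval of 2.24 to 3.42 (adjusted p = 0.00221, limma).

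MMP2 encodes gelatinase A (chromosome 16, 55478830 to 55506691), a proenzyme that MMP14 activates at the cell surface with TIMP2 as a bridge. It measured 10.88 and 11.23 on the MK-8776 arrays, against 10.47 and 10.74 on the DMSO arrays. The groups did not overlap, but the lower MK-8776 array lay only slightly above the higher DMSO array. The change was 0.45 (SE 0.23, 95% interval -0.07 to 0.97, adjusted p = 0.343, limma). An increase of nearly 2-fold thus lies within the interval, as does no change.

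Both membrane-type metalloprotease genes among the members rose, while the 4 others of this type that were measured did not pass: MMP15 was at -0.64, MMP16 at -0.05, MMP17 at 0.705 and MMP24 at 0.125. MMP14 encodes MT1-MMP, a transmembrane collagenase that also activates other metalloproteases (chromosome 14, 22836585 to 22847758). It had 12.25 and 11.97 on the MK-8776 arrays, against 10.71 and 10.74 on the DMSO arrays, and the DMSO arrays were close to each other. It rose by 1.39, or 2.61-fold (SE 0.21, 95% interval 0.90 to 1.87, adjusted p = 0.0149, limma).

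MMP25 encodes MT6-MMP, also called leukolysin, a protease that a lipid anchor holds to the neutrophil membrane (chromosome 16, 3046561 to 3060726). It had 6.77 and 6.74 on the MK-8776 arrays, against 5.18 and 5.19 on the DMSO arrays. The arrays within each group were nearly the same. It rose by 1.57, or 2.97-fold (SE 0.20, 95% interval 1.11 to 2.03, adjusted p = 0.00785, limma). The SE is larger than the spread of these arrays alone would give, because the fit draws each gene's spread toward that of the other genes. An antisense gene, MMP25-AS1, overlaps MMP25 in the gene table and was measured by a feature of its own. That feature read 5.09 and 6.66 in MK-8776 and 5.59 and 5.20 in DMSO, with overlapping groups and no call (adjusted p = 0.638, limma).

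Of the secreted proteases outside the gelatinases, MMP19 rose and MMP8 did not pass. MMP19 encodes a secreted protease of basement membrane proteins (chromosome 12, 55835433 to 55842936). It had 5.50 and 5.22 on the MK-8776 arrays, against 4.19 and 3.91 on the DMSO arrays. It rose by 1.31, or 2.48-fold (SE 0.22, 95% interval 0.80 to 1.82, adjusted p = 0.0219, limma). DMSO replicate 2 was below the lower quartile of the table's values (3.97), so the size of this change depends on the dim end of the array's range.

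MMP8 encodes neutrophil collagenase, which cuts fibrillar collagen (chromosome 11, 102711796 to 102724954). It had 3.64 and 3.76 on the MK-8776 arrays, against 3.48 and 3.07 on the DMSO arrays, and all 4 values were below that quartile. The change was 0.425 (SE 0.23, 95% interval -0.09 to 0.94, adjusted p = 0.368, limma). For a feature this dim, the lack of a call says little.

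ADAM8 encodes a membrane protease with a disintegrin domain, known from neutrophils, monocytes and other leukocytes (chromosome 10, 133262423 to 133276868). It measured 4.81 and 4.73 on the MK-8776 arrays, against 4.55 and 4.36 on the DMSO arrays. The groups did not overlap, and the gap between them was about as wide as the distance between the DMSO arrays. The change was 0.315 (SE 0.21, 95% interval -0.16 to 0.79, adjusted p = 0.483, limma).

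Of the measured inhibitor genes, TIMP1 rose and TIMP3 did not pass. TIMP1 encodes a secreted inhibitor that also binds the MMP9 proenzyme (chromosome X, 47582436 to 47586789). It had 15.58 and 15.83 on the MK-8776 arrays, against 14.35 and 14.57 on the DMSO arrays, with a wide gap between the groups. It rose by 1.245, or 2.37-fold (SE 0.22, 95% interval 0.75 to 1.74, adjusted p = 0.0235, limma). SYN1, whose gene overlaps TIMP1, measured 4.92 and 4.56 in MK-8776 and 4.39 and 4.49 in DMSO and was not called (adjusted p = 0.538, limma).

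TIMP3 encodes an inhibitor that stays bound to the matrix and also blocks ADAM proteases (chromosome 22, 32801705 to 32863041). It measured 5.03 and 4.90 on the MK-8776 arrays, against 4.76 and 5.03 on the DMSO arrays. The groups overlapped. The change was 0.07 (SE 0.21, 95% interval -0.42 to 0.56, adjusted p = 0.909, limma), and it was -0.065 without DMSO replicate 1.

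**Figure D2:**
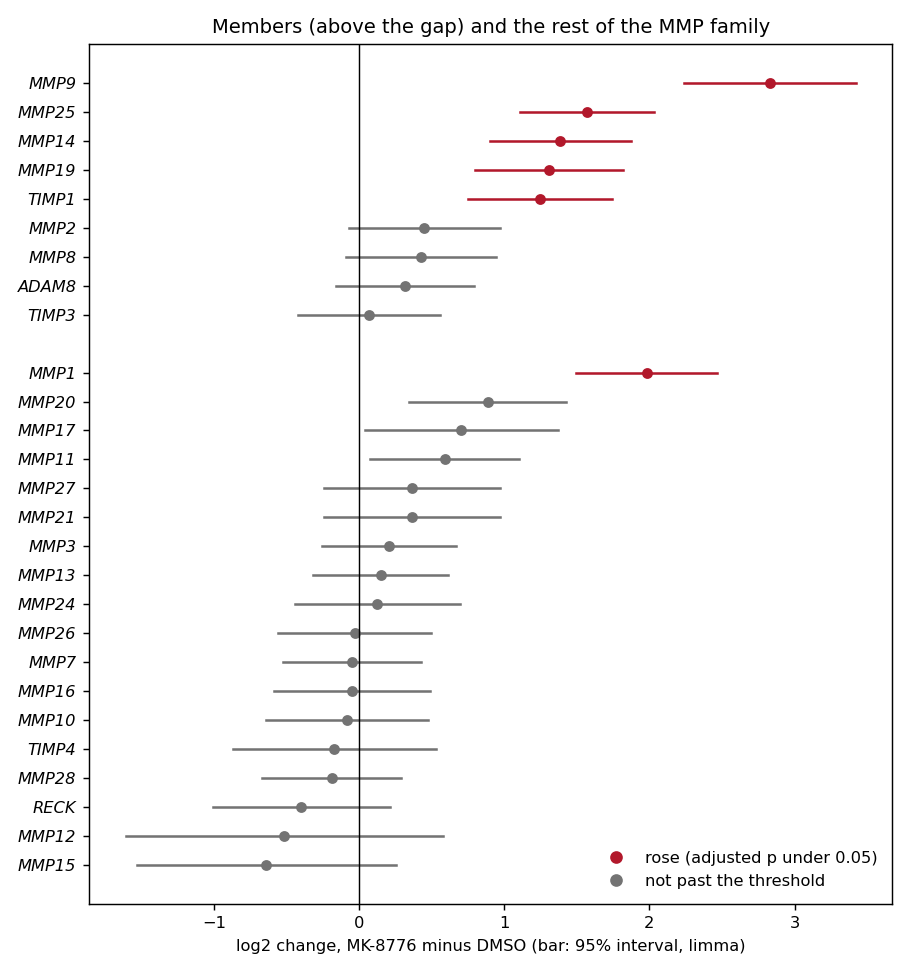
Log2 change, MK-8776 minus DMSO, with its 95% limma interval (bars) for the 9 measured genes above the gap and 18 further genes below it (16 other MMPs, TIMP4 and RECK); red marks genes that rose and grey those that did not pass. MMP9 at 2.83 and MMP1 at 1.98 lie farthest to the right, and the intervals of MMP2, MMP8, ADAM8 and TIMP3 cross 0.

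Since MMP9 and TIMP1 both rose, their difference was taken on each array, of which only the change between arrays has a meaning. MMP9 minus TIMP1 was -1.22 and -0.85 on the MK-8776 arrays, against -2.63 and -2.61 on the DMSO arrays. The protease feature thus gained 1.585 on the inhibitor feature, and the groups did not overlap. An exact two-sided permutation test of 2 arrays against 2 gave p = 0.333, the smallest it can give (0.50 after adjustment over the 6 pairs compared). MMP14 minus TIMP1 was -3.33 and -3.86 in MK-8776 and -3.64 and -3.83 in DMSO. That difference changed by 0.14, and the groups overlapped (exact permutation p = 1.0). MMP25 minus TIMP1 changed by 0.325 without overlap (exact permutation p = 0.333). MMP19 minus TIMP1 changed by 0.065, and the groups overlapped (exact permutation p = 0.667). MMP9 also gained 2.38 on MMP2 and 1.445 on MMP14, without overlap and at the same smallest p. MMP9 had the largest change of the measured members, so its gains on the others follow from values already given. With 2 arrays against 2 the permutation test cannot pass the threshold, so it decides none of these differences.

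The promoters of MMP14 and TIMP1 are shown because both genes rose together and RefSeq entries exist for them. Each window runs from 250 bases before the gene's start to 50 after it (GRCh38.p14, plus strand), MMP14 at chr14:22836335-22836634 and TIMP1 at chrX:47582186-47582485. Capitals mark matches, on either strand, to the 6 motifs searched.
MMP14: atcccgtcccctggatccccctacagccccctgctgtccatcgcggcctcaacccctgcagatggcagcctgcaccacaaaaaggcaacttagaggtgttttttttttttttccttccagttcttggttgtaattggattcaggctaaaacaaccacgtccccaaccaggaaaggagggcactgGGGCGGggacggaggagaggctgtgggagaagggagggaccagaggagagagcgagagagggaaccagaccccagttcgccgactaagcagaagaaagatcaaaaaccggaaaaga
TIMP1: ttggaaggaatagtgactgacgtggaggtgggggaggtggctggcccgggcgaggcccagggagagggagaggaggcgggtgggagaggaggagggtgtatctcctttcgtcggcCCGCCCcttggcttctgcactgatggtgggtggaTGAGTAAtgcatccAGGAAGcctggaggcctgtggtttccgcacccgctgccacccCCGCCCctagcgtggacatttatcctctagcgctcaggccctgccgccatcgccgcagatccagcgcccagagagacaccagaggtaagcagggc

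The motifs were TGAGTCA and its variant TGAGTAA, which AP-1 factors such as JUN and FOS bind, AGGAAG for ETS factors, GGGCGG for the GC box of SP1, GCGNGGGCG for EGR1, and the TATA box TATAAA. They were chosen with what is known of metalloprotease promoters in mind. Bases are counted from 1 at the 5′ end of the window, so the gene starts right after base 250. The MMP14 window held 1 GC box, at bases 185 to 190, and no match to the other motifs. The TIMP1 window held TGAGTAA at bases 150 to 156, AGGAAG at 164 to 169, and a GC box on the reverse strand at 116 to 121 and at 206 to 211. None of these matches overlapped another. Of 34943 promoter windows of the same length, 2.57% held TGAGTAA, 4.96% TGAGTCA, 33.7% AGGAAG, 44.9% the GC box, 9.41% the EGR1 motif and 11.6% TATAAA. The bases of these windows that are C or G made up 55% for MMP14 and 65% for TIMP1. RefSeq windows were found for 5 of the members, and those of ADAM8 and TIMP3 held 3 and 5 GC boxes, although neither gene passed the test. The window of MMP8 held TATAAA.

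Among transcription factors known to act on such promoters, 3 of 21 rose, 0 fell and 18 did not pass. Of all genes, 1.66% rose and 2.02% fell. EGR1, an immediate early factor, rose by 1.605, with 10.11 and 10.51 on the MK-8776 arrays against 8.81 and 8.60 on the DMSO arrays (adjusted p = 0.0117, limma). The AP-1 subunit genes FOSL1 and JUND rose by 1.425 and 1.29 (adjusted p = 0.0463 and 0.0386, limma), and FOSL1 missed the threshold when all features were tested (adjusted p = 0.0570, limma). FOS had 8.28 and 9.85 on the MK-8776 arrays and 6.92 and 8.98 on the DMSO arrays, which overlapped. The list's median change was 0.23, against 0.005 for all genes. Both MK-8776 arrays lay above both DMSO arrays in 8 of the 21, against 24.0% of all genes. They lay below in 1, against 24.2% of all genes, and the groups overlapped in 12. The 5 NF-kB subunit genes of the list did not pass: RELA was at 0.23, NFKB1 at 0.195, RELB at 0.135, REL at 0.11 and NFKB2 at -0.32.

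Most of the rest of the MMP family did not pass, and of all genes only 3.69% passed in either direction (1.66% rose and 2.02% fell). Of 18 further genes measured, 16 other metalloproteases, TIMP4 and the membrane-anchored inhibitor RECK, 1 rose, 0 fell and 17 did not pass, and the median change was 0.05. The gene that rose was MMP1, which encodes interstitial collagenase, with 6.82 and 6.67 on the MK-8776 arrays against 4.65 and 4.88 on the DMSO arrays. Its change was 1.98, or 3.94-fold (SE 0.21, 95% interval 1.49 to 2.47, adjusted p = 0.00441, limma). TIMP4 was at -0.17 and RECK at -0.40. In 6 of the 18, all 4 arrays were below the lower quartile. The limma fit called 0 of 32 other ADAM and ADAMTS genes, whose median was -0.0025. An unadjusted p below 0.05 was reached by 5 of them, against 18.8% of all genes. ADAM22 and ADAMTS17 changed most, at -0.91 and -0.885 (adjusted p = 0.0510 and 0.10, limma), and 18 of the 32 lay under the lower quartile on all arrays.

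**Figure D3:**
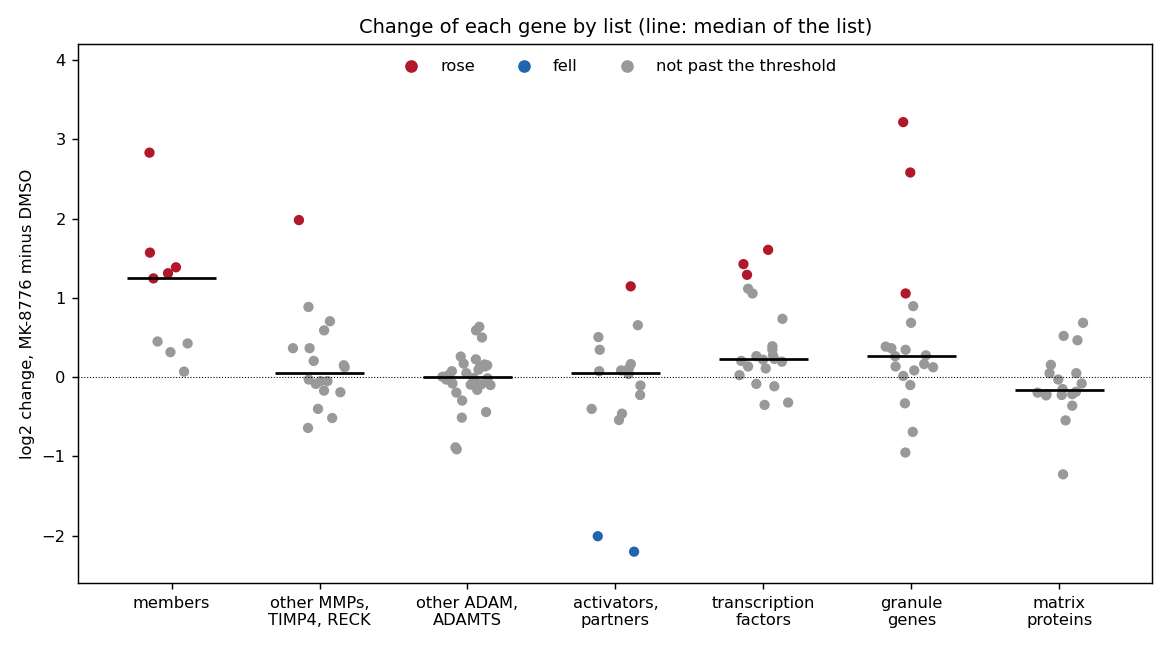
Log2 change, MK-8776 minus DMSO, of each measured gene in the member set and in 6 related lists; red points rose, blue fell, grey did not pass, and lines are list medians. The members' median is 1.245, and those of the other lists lie between -0.17 and 0.27.

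Genes that activate, bind or carry metalloproteases changed in both directions. Of 16 measured, 1 rose, 2 fell and 13 did not pass, with a median of 0.06. Of all genes, 1.66% rose and 2.02% fell, with a median of 0.005. CTSG and PRTN3, which encode the neutrophil serine proteases cathepsin G and proteinase 3, both fell, CTSG at -2.20 (adjusted p = 0.00516, limma) and PRTN3 at -2.005 (adjusted p = 0.0193, limma). CTSG had 6.61 and 6.05 on the MK-8776 arrays, against 8.56 and 8.50 on the DMSO arrays. CD63, a tetraspanin gene whose product binds TIMP1, rose by 1.145, with 11.75 on both MK-8776 arrays against 10.44 and 10.77 on the DMSO arrays (adjusted p = 0.0297, limma). FURIN, the convertase that removes the propeptide of membrane-type metalloproteases, was at 0.655 (adjusted p = 0.203, limma). CD44 and BSG, surface proteins that dock or induce metalloproteases, were at 0.085 and -0.105.

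MMP9, MMP8 and MMP25 are neutrophil granule genes, so other genes of tertiary and secondary granules were set beside them. Of 19 measured, 3 rose, 0 fell and 16 did not pass, with a median of 0.265. Of all genes, 1.66% rose and 2.02% fell, with a median of 0.005. Both MK-8776 arrays lay above both DMSO arrays in 10 of the 19 and below in 2, against 24.0% and 24.2% of all genes. CHI3L1, a chitinase-like glycoprotein gene, rose by 3.215, the chemoattractant receptor gene FPR1 by 2.58, and CYBB, the membrane subunit gene of the NADPH oxidase, by 1.055. Their adjusted p values were 0.000720, 0.00785 and 0.0372 (limma). LCN2, whose product binds MMP9 in neutrophils, was below the lower quartile on all arrays (3.70 in MK-8776 and 3.535 in DMSO), as were ARG1 and OLFM4. The 2 with the MK-8776 arrays below were LTF, the lactoferrin gene, at -0.95 and ITGAM at -0.69 (adjusted p = 0.0534 and 0.208, limma).

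Matrix protein genes, whose products these enzymes cut, gave 0 limma calls among 18, while 3.69% of all genes were called. An unadjusted p below 0.05 was reached by 3 of the 18, against 18.8% of all genes. HSPG2, the perlecan gene, and COL4A5, a basement membrane collagen gene, changed most, at -1.225 and 0.685 (adjusted p = 0.124 and 0.113, limma), and the median was -0.17. COL1A1, FN1 and VTN, which encode a fibrillar collagen chain, fibronectin and vitronectin, measured 3.86, 3.58 and 4.84 in MK-8776 and 4.055, 3.765 and 4.87 in DMSO.

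The 5 genes whose pattern over the 4 arrays was most like that of MMP9 were RAB31, NCF1, CYTIP, CXCL8 and C3. Likeness was the distance between the 4 log2 values after each gene was centred on its own mean, which was 0.428 for RAB31 and 0.578 for C3. It weighs the size of the change more than the differences between replicates. RAB31 encodes a small GTPase of vesicle traffic, NCF1 a cytosolic subunit of the NADPH oxidase, CYTIP a scaffold protein of leukocytes, CXCL8 the neutrophil chemokine interleukin 8 and C3 the central complement component. RAB31 had 11.81 and 11.93 on the MK-8776 arrays, against 9.15 and 9.41 on the DMSO arrays. CXCL8 had 15.98 and 16.42 on the MK-8776 arrays, against 13.92 and 13.81 on the DMSO arrays. These 5 genes changed by 2.335 to 3.015, and NCF1 has near-identical pseudogene copies, so its signal is uncertain. Among the members MMP25 stood nearest to MMP9, at a distance of 1.35 and 71st of all genes, and TIMP3 farthest, at 2.81.

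**Figure D4:**
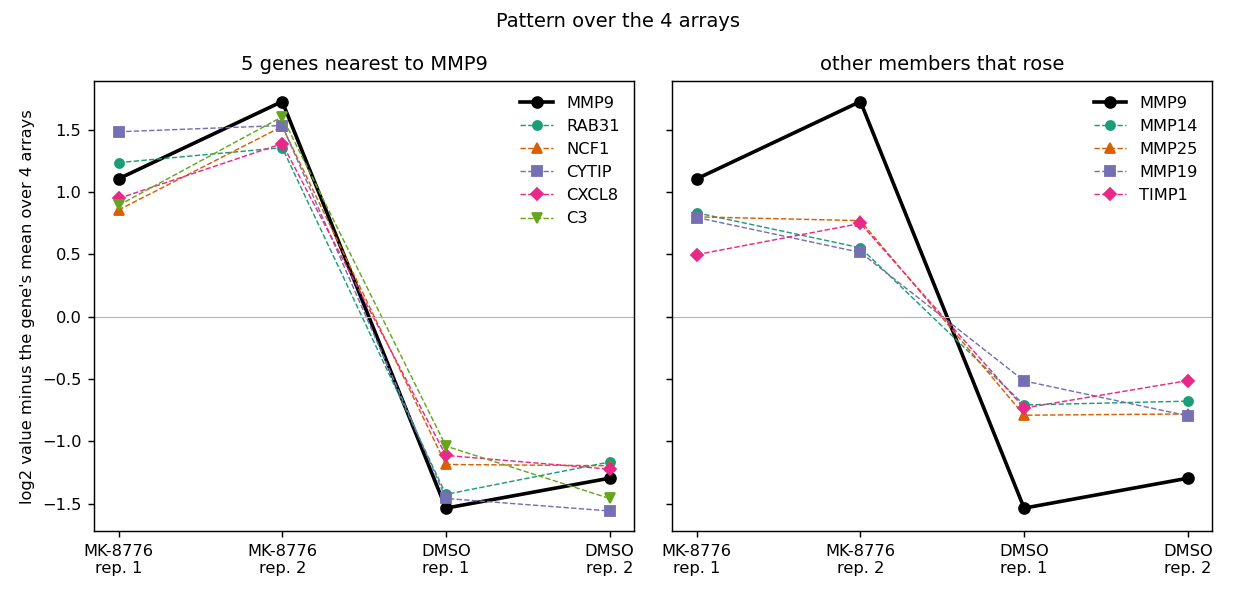
Log2 values minus each gene's mean over the 4 arrays, for MMP9 (black) with the 5 genes nearest to it on the left and with the 4 other members that rose on the right; lines only join the points of a gene. The nearest genes follow MMP9 closely, since they were picked for likeness to it on these arrays. MMP14, MMP25, MMP19 and TIMP1 keep the order of the groups at a smaller size.

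The labelled cell type was checked with promyelocyte markers. MPO, the myeloperoxidase gene, measured 14.81 and 15.36 on the MK-8776 arrays and 16.09 and 16.27 on the DMSO arrays (adjusted p = 0.0514, limma). The 6 measured promyelocyte markers averaged 8.85 to 9.36 on the MK-8776 arrays and 9.81 to 10.33 on the DMSO arrays. Of these, 1 rose, ANPEP, at 1.075 (adjusted p = 0.0316, limma), and 2 fell, CTSG and PRTN3. AZU1 and CEBPE did not pass, at -1.20 and -0.35. Of 6 markers of monocytes and macrophages, which express several of the members, CD14 alone rose, by 1.37 (adjusted p = 0.0491, limma). They averaged 4.65 to 4.82 in MK-8776 and 4.41 to 4.49 in DMSO, and MRC1 and FCGR3A lay under the lower quartile on all arrays. The part of such cells in the members' rise was not tested. Of 6 fibroblast and stroma markers limma called 0, with 1 at an unadjusted p below 0.05, against 18.8% of all genes. They averaged 4.63 to 4.94 in MK-8776 and 4.75 to 4.76 in DMSO. Of 5 lymphocyte markers CD3E alone was called and fell, at -1.38 (adjusted p = 0.0264, limma). The lymphocyte markers averaged 5.90 to 6.04 in MK-8776 and 6.29 to 6.56 in DMSO. Limma called 0 of 5 endothelium markers and 0 of 5 erythroid and platelet markers. Since it called only 3.69% of all genes, 0 calls in lists this short say little. CHEK1, the gene of the drug's target, was at -0.81 (SE 0.22, adjusted p = 0.0883, limma). Its adjusted p was 0.0333 in the limma fit that let the variance follow the level. It was 0.0492 where only the brighter genes, over the median level, were tested. With quantile normalization, median centring, the replicate block or all features tested CHEK1 did not pass (adjusted p = 0.0945 to 0.101, limma).

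The calls rest on all 4 arrays. With any 1 array left out, 1 group holds a single array, so only the sizes of change are given here for those fits. MMP9 changed by 2.52 to 3.14 over these fits, MMP25 by 1.555 to 1.585, MMP14 by 1.245 to 1.525, MMP19 by 1.17 to 1.45 and TIMP1 by 1.12 to 1.37.

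**Figure D5:**
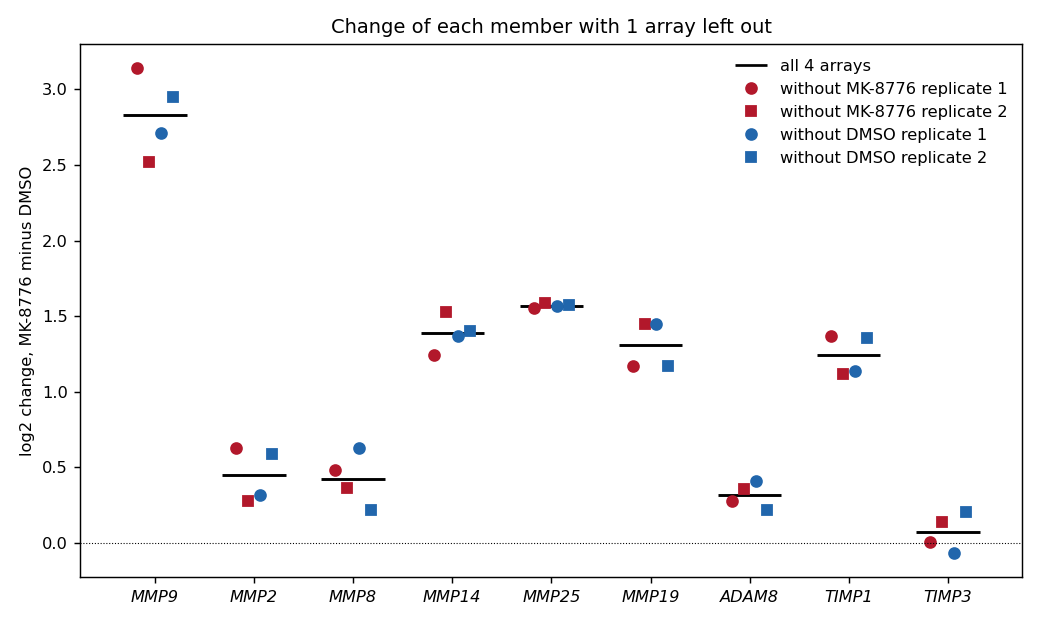
Log2 change, MK-8776 minus DMSO, of each measured gene with all 4 arrays (black lines) and with 1 array left out (red without an MK-8776 array, blue without a DMSO array; circles replicate 1, squares replicate 2). The 5 genes that rose stay above 1 in each fit, and TIMP3 lies at both sides of 0.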

How the data were processed

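Total RNA from live NB4-R4 cells was biotin-labelled and measured on 4 Affymetrix arrays. The deposited values are log2 expression per feature, made by the authors with RMA on build hg38, per the submitters' processing notes. RMA subtracts background, gives all arrays 1 distribution and combines probes, so changes are relative to other genes. Its version and settings, scan dates and batches: not given in the sources used here. The log2 scale is inferred from the range, 2.16 to 18.54, with array medians of 5.76 to 5.79.

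Of 21448 features, 17709 had exactly 1 gene symbol, all matched to RefSeq by gene number. For 20 genes with over 1 feature the highest mean was kept, leaving 17687 genes. R 4.3.3 and limma 3.58.1 were used to fit them (functions lmFit and eBayes, values as deposited, two-sided, no filter on dim features; 2 residual and 6.3 prior degrees of freedom), a procedure tested on simulated data. The number of arrays limits the precision. Correlations across genes were 0.993 within groups and 0.981 to 0.989 between groups.

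The members, the 6 lists and the tests were chosen with earlier results of these data known. Named are all members, CHEK1, up to 4 genes past the threshold per list by size of change (the 2 largest where none passed), and the 5 genes nearest to MMP9. Other genes given as values were chosen after their values were seen. Alternatives were quantile normalization, median centring, genes above the median level, a variance trend, a replicate block, all features, and leaving out each array.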

Additional observations from a re-analysis of the deposited data

How the results depend on the processing

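Across quantile normalization, median centring, the variance trend, the replicate block and all features tested, the same 5 members rose, with MMP9 at 2.805 to 2.88 and an adjusted p of at most 0.0223 (limma). With the replicate block, TIMP1, MMP14 and MMP19 passed only narrowly (adjusted p = 0.0497, 0.0487 and 0.0485, limma). Among genes above the median level (5.77), MMP9, MMP14, MMP25 and TIMP1 rose and MMP19 was not tested. All genes past the threshold numbered 652, against 1185 with a variance trend, 309 with the replicate block and 0 to 34 with 1 array left out. Without 1 array, 0 members passed, MMP9 was 2.52 to 3.14 with an adjusted p of 0.0540 to 0.315, and TIMP3 was -0.065 to 0.205. The other MMP family genes gave 2 calls with a variance trend (MMP1 and MMP20), and 0 above the median level, where MMP1 was not tested. The ADAM and ADAMTS list gave 1 fall, ADAM22, with a variance trend and 1, the same gene, above the median level. With the replicate block, 1 transcription factor gene, EGR1, passed, while FOSL1, JUND, CD63 and CYBB did not (adjusted p = 0.0895, 0.0825, 0.0663 and 0.0769, limma). With 1 array left out the counts were 0 to 0 for the MMP family, transcription factor and activator lists and 0 to 2 for the granule list, whose calls CHI3L1 and FPR1 held without MK-8776 replicate 2. The cause of these shifts was not tested, except that 1 array fewer leaves 1 group with a single array, assumed to vary like the other.

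Replicates 1 and 2 exist in each group, but no label links equal numbers to a common day or culture. Deviations from the group means of the arrays numbered 1 correlated at 0.139 across genes. With 2 arrays per group this value cannot decide whether equal numbers are paired. Features near the bottom of the range, such as MMP8 and the DMSO level of MMP19, limit what can be seen.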

Other observations

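Of the metalloprotease genes, 9 stand side by side in a cluster on chromosome 11 (102520508 to 102955732, GRCh38), in the order MMP7, MMP20, MMP27, MMP8, MMP10, MMP1, MMP3, MMP12 and MMP13. The cluster was looked at after the values of its genes were seen. MMP1 rose and the other 8 did not pass, with a median change over the 9 of 0.205, against 0.005 for all genes. Its neighbours MMP10 and MMP3, the stromelysin genes, were at -0.085 (95% interval -0.64 to 0.47) and 0.205 (95% interval -0.26 to 0.67). MMP10 measured 4.44 and 4.07 on the MK-8776 arrays, against 4.55 and 4.13 on the DMSO arrays, and these overlapped. MMP3 had 4.14 and 4.17 on the MK-8776 arrays, against 4.00 and 3.90 on the DMSO arrays. MMP20, the enamel protease gene, had 3.76 and 3.32 on the MK-8776 arrays, against 2.78 and 2.53 on the DMSO arrays, all under the lower quartile of all values (change 0.885, adjusted p = 0.0869, limma). MMP12, the macrophage elastase gene, read 3.49 and 3.38 in MK-8776 and 3.07 and 4.83 in DMSO, so its DMSO arrays lay farther apart than the groups. In 4 of the 9 genes all arrays lay under that quartile.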
